A study of Mus musculus with 12 samples.

Results

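Adenosine signalling and clearance genes were examined as 9 genes of the adenosine cycle, out of 33024 gene symbols counted in the cortex of mice that had drunk ethanol or water. They were taken by gene symbol, and fall by role into the receptors Adora1 and Adora2b, the equilibrative nucleoside transporters Slc29a1 and Slc29a2, the extracellular enzymes Entpd1, Entpd2 and Nt5e, and the adenosine-consuming enzymes Ada and Adk. All 9 had a row in the table, and all 9 passed edgeR's expression filter, which kept 16059 genes. The receptor gene Adora2a is not one of the 9 and is given with the wider pathway.

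Bulk RNA from the cortex of 12 C57BL/6 mice was sequenced, 7 labelled Control (vehicle) and 5 labelled EtOH. The mice belonged to the abstinence arm of a binge-drinking study, which asked whether repeated ethanol drinking in adolescence leaves lasting changes in the brain. From 30 days of age the ethanol-drinking mice were offered 20% (v/v) ethanol beside water, in nightly sessions of 12 h over a programme of 35 days, and the controls drank water. Both groups then had 14 days without ethanol. By the study's methods, mice of this arm next went through water maze, Y-maze, forced swim and rotarod tests and were killed afterwards. The RNA was thus taken after drinking had stopped and after this testing. The length of the programme is given as 5 weeks in the study's results and as 7 weeks in its methods. Drinking was voluntary, the intake of each mouse is not given in the labels, and neither group carried a transgene or a deletion by the labels. The labels number the mice within each group and give neither sex nor litter.

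Adenosine is a purine nucleoside that restrains neuronal firing and promotes sleep, and it is one of the messengers through which ethanol is known to act on the brain. Outside cells it is made from released ATP in steps, by ectonucleotidases that cut ATP and ADP to AMP and by an AMP-cleaving enzyme on the cell surface. Its action on receptors ends when it is carried into cells by nucleoside transporters and is there phosphorylated back to AMP by adenosine kinase or deaminated to inosine.

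Of the 9 genes, 4 were lower and 1 was higher in the ethanol-drinking mice (edgeR quasi-likelihood test, Benjamini-Hochberg adjusted p under 0.05). The genes that fell were Nt5e, Entpd1, Slc29a1 and Adk, which cover the formation, the transport and the phosphorylation of adenosine, and the gene that rose was Adora1, the receptor through which adenosine inhibits neurons. Adora2b, Slc29a2, Entpd2 and Ada did not pass the test. Over all genes tested, 11.6% were lower and 12.1% were higher by the same rule. With the further requirement of a log2 fold change above 0.5 in size, 1 of the 9 genes was lower, Nt5e, and 0 were higher, while 4.09% of all genes tested were lower and 4.2% were higher. The median log2 fold change of the 9 genes was 0.07, and that of all genes tested was 7.21e-05. Because the RNA came from whole tissue, fewer cells of a type and less RNA per cell cannot be told apart for any of these genes.

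**Figure D1:**
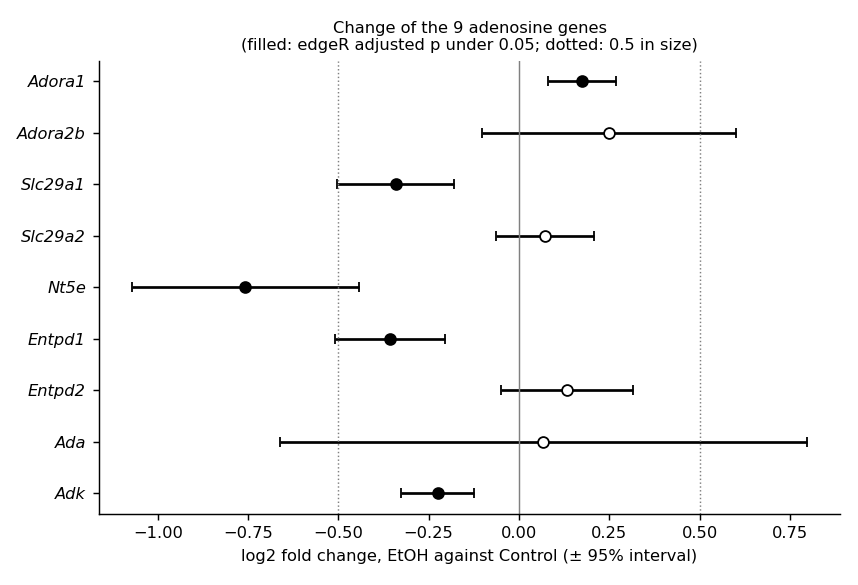
Log2 fold change of each of the 9 adenosine genes in ethanol-drinking (n = 5) against control mice (n = 7), with its 95% interval by a normal approximation. Filled points have an edgeR adjusted p under 0.05, and dotted lines mark 0.5 in size. Nt5e lies furthest from 0 at -0.76, Adora1 is the filled point above 0 at 0.17, and the interval of Ada, the gene with the fewest counts, runs from -0.66 to 0.80.

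Total counts ranged from 31768079 to 42183031 per mouse, and levels are given as CPM, counts scaled to a common TMM library size. The detection floor of 3 counts was at most 0.0944 CPM. All 13 listed markers of cortical excitatory neurons passed the filter in this tissue labelled as cortex, with 4 lower and 5 higher. Their summed level, 2946 to 3457 CPM in the controls and 2874 to 3438 CPM in the ethanol-drinking mice, was led by Slc17a7. Other marker lists moved with the groups, those of striatum, hippocampus, inhibitory interneurons and microglia without overlap of their sums and those of choroid plexus, oligodendrocytes and astrocytes with overlap. The microglial and astrocyte values stand beside Entpd1 and Adk. All 15 listed striatal markers were lower, with a summed level of 1465 to 3162 CPM in the controls and 501 to 589 CPM in the ethanol-drinking mice, and Control 7 had the lowest sum of the controls. Of 15 hippocampal markers 10 were higher, with sums of 553 to 666 CPM and 842 to 1058 CPM. Choroid plexus and ependymal markers, among them Ttr, summed to 18.8 to 31.6 CPM in the controls and reached 1002 CPM in EtOH 3, 287 CPM in EtOH 4 and 127 CPM in EtOH 1, with 27.6 CPM in EtOH 2 and 16.1 CPM in EtOH 5. Inhibitory interneuron markers, 4 of 9 lower and 1 higher, summed to 1046 to 1363 CPM in the controls and 852 to 916 CPM in the ethanol-drinking mice, and 9 of 10 oligodendrocyte markers were lower, with sums of 4644 to 6154 CPM and 3109 to 5545 CPM, EtOH 2 lying inside the control range. The striatal and hippocampal marker scores hold 97.7% of the variance of group membership. In an edgeR fit with both scores as covariates 0 of the 9 genes were lower and 0 were higher. The log2 fold change turned to 0.79 for Nt5e, 0.38 for Slc29a1 and -0.27 for Adora1, and was -0.02 for Entpd1 and -0.62 for Adk. The edgeR adjusted p was at least 0.64 for each of these genes. Because the scores nearly coincide with the groups, this fit cannot settle the signs. Tissue composition and ethanol cannot be told apart in these mice.

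The positions of the genes are those of the mouse genome build GRCm39. The 250 bases upstream of the start of the canonical transcript are shown for Nt5e and Entpd1, the pair of sequential ATP- and AMP-cleaving enzymes whose transcripts both fell, because in neither gene does an annotated exon lie in that window. That start is at 88209089 in Nt5e, where the gene begins, and at 40648214 in Entpd1, inside the span of the gene, since other Entpd1 transcripts start further upstream. Both run 5′ to 3′ on the strand of the gene. Capitals mark a TATAAA match on the opposite strand in Nt5e and a CCAAT match in Entpd1.
Nt5e, chr9:88208839-88209088, + strand: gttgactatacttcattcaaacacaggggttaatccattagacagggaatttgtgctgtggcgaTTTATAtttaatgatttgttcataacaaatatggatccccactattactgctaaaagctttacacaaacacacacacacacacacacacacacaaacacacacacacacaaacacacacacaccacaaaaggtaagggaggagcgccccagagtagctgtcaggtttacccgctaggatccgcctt
Entpd1, chr19:40647964-40648213, + strand: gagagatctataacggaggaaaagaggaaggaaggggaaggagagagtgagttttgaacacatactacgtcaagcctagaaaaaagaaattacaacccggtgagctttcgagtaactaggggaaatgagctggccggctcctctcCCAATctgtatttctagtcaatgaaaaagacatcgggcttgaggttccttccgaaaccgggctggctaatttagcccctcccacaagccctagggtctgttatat
The matches begin 186 bases before this start in Nt5e and 105 bases before it in Entpd1. Both windows had a lower GC content, 42.8% and 47.2%, than the median of all promoter windows, 53.2%, and both lacked the GC box GGGCGG on either strand. Slc29a1 and Adk, which also fell, each held a GC box, with GC contents of 62% and 58.4%. Slc29a2, which did not pass the test, lacked a GC box and had 52.8%. Among the 9 genes, 6 held a GC box, 4 held CCAAT, 1 held TATAAA, 2 held ACGTG and 0 held TGACGTCA, searched on both strands. Of 21770 promoter windows of the same length, 36.3% held the GC box, 36.5% held CCAAT, 11.9% held TATAAA, 17% held ACGTG and 1.7% held TGACGTCA. The GC box overlapped CCAAT once in Adk and ACGTG once in Entpd2. These matches describe the letters of the windows and say nothing of the factors that bind there.

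The receptors were led by Adora1, on chromosome 1 from 134126948 to 134163579, which encodes the inhibitory adenosine receptor of high affinity. Its lowest, median and highest levels in the controls were 139.8, 154 and 162 CPM. In EtOH 1 to EtOH 5 the levels were 176, 174, 164, 171 and 177 CPM. Every ethanol-drinking mouse was therefore above every control mouse, with 1 of the 9 genes separated in this direction against 4.84% of all genes tested. The mean rose from 153 ± 7.95 in the controls to 172 ± 5.20 CPM (mean ± SD, n = 7 and n = 5). The log2 fold change in the edgeR fit was 0.17 ± 0.05 (standard error) with a Benjamini-Hochberg adjusted p = 0.0150. The rise was small, and 45% of all genes tested had a larger log2 fold change in size. In the annotation used here 52.4% of the exon length of Adora1 overlaps exons of Mybph on the other strand, but Mybph itself had 0.186 ± 0.0747 CPM (SD, n = 7) in the controls and 0.193 ± 0.0873 CPM (SD, n = 5) in the ethanol-drinking mice.

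Adora2b, a low-affinity receptor that raises cyclic AMP, lies on chromosome 11 from 62139804 to 62157279 and was sparse in this tissue. Its levels in the controls ran from 1.59 to 3.62 CPM with a median of 2.88 CPM. In EtOH 1 to EtOH 5 they were 3.43, 2.99, 3.34, 4.58 and 2.92 CPM. The groups overlapped, and EtOH 4 alone lay above all controls. The log2 fold change was 0.25 with a 95% interval of -0.10 to 0.60 (edgeR adjusted p = 0.337 after Benjamini-Hochberg adjustment), an interval that holds both no change and the rise seen for Adora1, and it was 0.13 without EtOH 4 and 0.15 without Control 4. Within a mouse, the log2 ratio of Adora1 to Adora2b was 5.73 ± 0.36 (SD, n = 7) in the controls and 5.64 ± 0.27 (SD, n = 5) in the ethanol-drinking mice, and this difference was within the spread (exact two-sided permutation test, p = 0.653, adjusted p = 0.653 over 5 ratios).

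The 2 equilibrative transporters behaved differently. Slc29a1, on chromosome 17 from 45896125 to 45910733, encodes ENT1, the nucleoside carrier that ethanol inhibits directly. Its levels in the controls had a lowest value of 14.9, a median of 18.8 and a highest value of 20.9 CPM. EtOH 1 to EtOH 5 had 13.2, 15.4, 14.9, 15.1 and 15.2 CPM. The groups overlapped through Control 7 alone, which carried the lowest control value, and the next lowest control was at 17.4 CPM. The mean fell from 18.7 ± 2.07 in the controls to 14.8 ± 0.89 CPM (mean ± SD, n = 7 and n = 5), a change of -21.1%. By edgeR this was a log2 fold change of -0.34 ± 0.08 (standard error) with a Benjamini-Hochberg adjusted p = 0.00659. With each mouse left out in turn, the log2 fold change ran from -0.30 without EtOH 1 (edgeR adjusted p = 0.0247) to -0.39 without Control 7 (edgeR adjusted p = 0.00109).

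Slc29a2, on chromosome 19 from 5073562 to 5082385, encodes ENT2, a carrier of nucleosides and nucleobases. The controls ranged from 14.2 to 17.0 CPM around a median of 15.9 CPM. The ethanol-drinking mice had 16.2, 15.8, 16.3, 18.5 and 16.6 CPM in the order of their numbers, within the control range apart from EtOH 4. The log2 fold change was 0.07 with a 95% interval of -0.06 to 0.21 (edgeR adjusted p = 0.483 after Benjamini-Hochberg adjustment), and 0.03 without EtOH 4. The log2 ratio of Slc29a1 to Slc29a2 within a mouse, which does not depend on library scaling, went from 0.23 ± 0.23 (SD, n = 7) to -0.17 ± 0.11 (SD, n = 5), a difference of -0.41 (exact two-sided permutation test, p = 0.00884, adjusted p = 0.0221 over 5 ratios). In the 5 ethanol-drinking mice and in Control 7 the ratio was below 0, and in the 6 other controls it was above 0.

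Among the enzymes that form adenosine, Nt5e showed the largest change in size of the 9 genes. It encodes ecto-5′-nucleotidase (CD73), which cuts AMP to adenosine on the cell surface, and lies on chromosome 9 from 88209089 to 88254146. The controls had a lowest level of 3.30, a median of 6.09 and a highest level of 7.13 CPM. EtOH 1 to EtOH 5 had 4.20, 3.39, 3.04, 3.16 and 3.22 CPM. Control 7 lay among the ethanol-drinking mice, and the 6 other controls lay above all of them, from 5.18 CPM upwards. The mean fell from 5.77 ± 1.26 in the controls to 3.40 ± 0.46 CPM (mean ± SD, n = 7 and n = 5), a change of -40.8%. In the edgeR fit the log2 fold change was -0.76 ± 0.16 (standard error) with a Benjamini-Hochberg adjusted p = 0.00248. Of all genes tested, 5.98% had a larger log2 fold change in size. The log2 fold change was -0.86 without Control 7 (edgeR adjusted p = 8.88e-05), and with any other mouse left out it lay between that value and -0.70, with edgeR adjusted p of at most 0.00868.

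Control 7 was also the control with the lowest summed striatal markers, and its levels of Nt5e and Slc29a1 were the lowest of the controls, whereas its Adora1 level was the highest and its Adk and Entpd1 levels were 45.5 and 14.01 CPM, inside the control range. With Control 7 left out, Nt5e, Slc29a1, Entpd1 and Adk had every ethanol-drinking mouse below every remaining control mouse, and Adora1 had every one above. Over all genes tested, 5.83% were separated downwards and 5.64% upwards without Control 7, which was left out after its values had been seen. The striatal sum of Control 7 was above those of all ethanol-drinking mice, at 1465 CPM against at most 589 CPM, while its levels of Nt5e and Slc29a1 lay within their range. The parts of striatal tissue and of ethanol in these differences cannot be told apart.

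**Figure D2:**
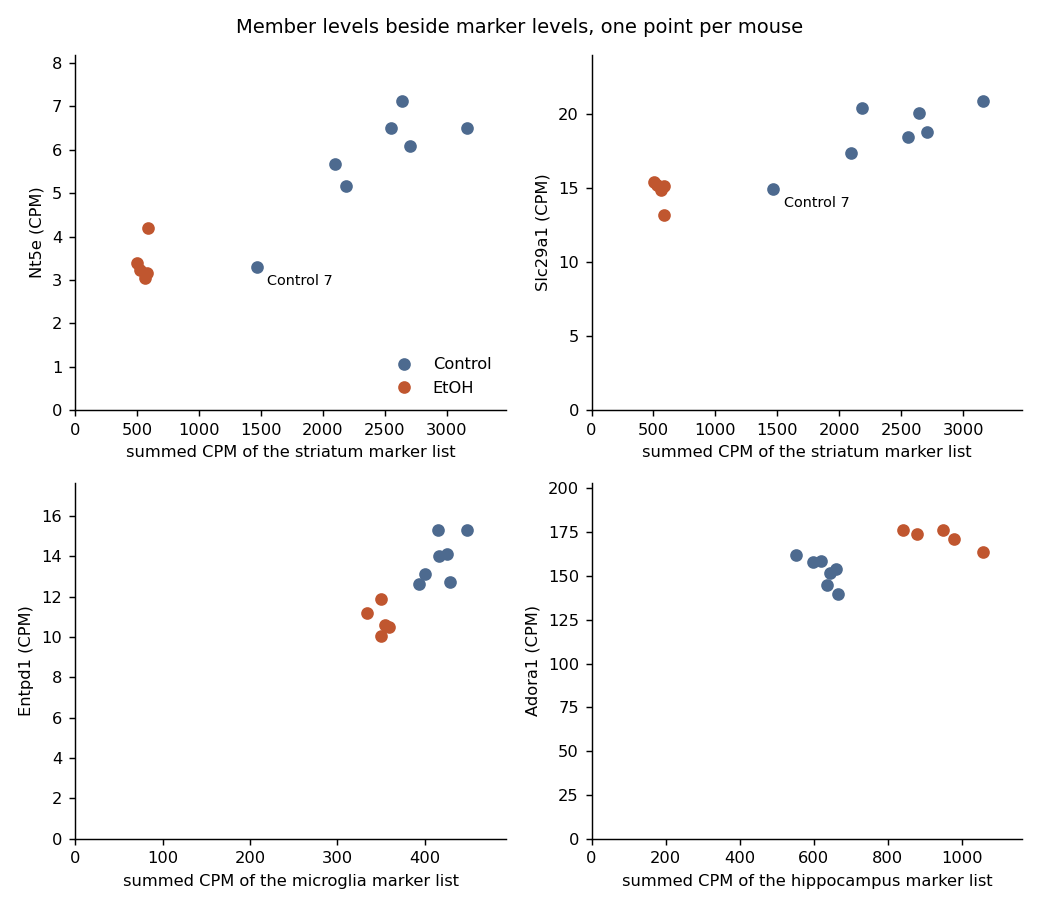
Levels of Nt5e and Slc29a1 against the summed level of 15 striatal markers, of Entpd1 against 10 microglial markers and of Adora1 against 15 hippocampal markers, all in CPM, with a point for each mouse. The ethanol-drinking mice form a separate group on each horizontal axis, and Control 7 has the lowest striatal sum of the controls, 1465 CPM, with 3.30 CPM of Nt5e and 14.9 CPM of Slc29a1.

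Entpd1, on chromosome 19 from 40600810 to 40731585, encodes CD39, the ectonucleotidase that cuts ATP and ADP to AMP and is known in the brain from microglia and blood vessels. Its levels in the controls were 12.6 at the lowest, 14.01 at the median and 15.3 CPM at the highest. In EtOH 1 to EtOH 5 they were 10.1, 10.6, 11.9, 10.5 and 11.2 CPM. All ethanol-drinking mice lay below all controls, including Control 7. The mean fell from 13.9 ± 1.13 in the controls to 10.8 ± 0.70 CPM (mean ± SD, n = 7 and n = 5), a change of -21.9%. Its edgeR log2 fold change was -0.36 ± 0.08 (standard error) with a Benjamini-Hochberg adjusted p = 0.00294. Microglial markers moved with it, 7 of 10 being lower and 0 higher, with a summed level of 393 to 448 CPM in the controls and 334 to 359 CPM in the ethanol-drinking mice. Of 10 endothelial markers 1 was lower and 0 were higher, with sums of 281 to 320 CPM and 270.3 to 293 CPM. The part of either cell type in the fall of Entpd1 was not tested.

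Entpd2, on chromosome 2 from 25285691 to 25291424, encodes an ectonucleotidase that prefers ATP to ADP. The controls ran from 5.48 to 7.23 CPM around a median of 6.44 CPM. The ethanol-drinking mice had 6.86, 6.91, 7.60, 6.77 and 7.42 CPM, in the upper part of the control range or just above it. The log2 fold change was 0.13 with a 95% interval of -0.05 to 0.32 (edgeR adjusted p = 0.320 after Benjamini-Hochberg adjustment). Entpd2 shares 21.6% of its exon length with Npdc1 on the same strand, a gene at 254 ± 12.7 CPM (SD, n = 7) in the controls and 249 ± 14.7 CPM (SD, n = 5) in the ethanol-drinking mice, so its own level is uncertain.

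Of the 5 ratios, that of the 2 ectonucleotidases was the one whose groups did not overlap, and it carries the uncertainty of Entpd2 from its overlap with Npdc1. The log2 ratio of Entpd1 to Entpd2 was 1.09 ± 0.10 (SD, n = 7) in the controls and 0.60 ± 0.04 (SD, n = 5) in the ethanol-drinking mice. It was 0.55, 0.61, 0.64, 0.63 and 0.59 in EtOH 1 to EtOH 5 and at least 0.95 in each control, with no overlap. The difference of -0.49 had the smallest p that the test of 5 against 7 mice can give (exact two-sided permutation test, p = 0.00126, adjusted p = 0.00631 over 5 ratios).

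**Figure D3:**
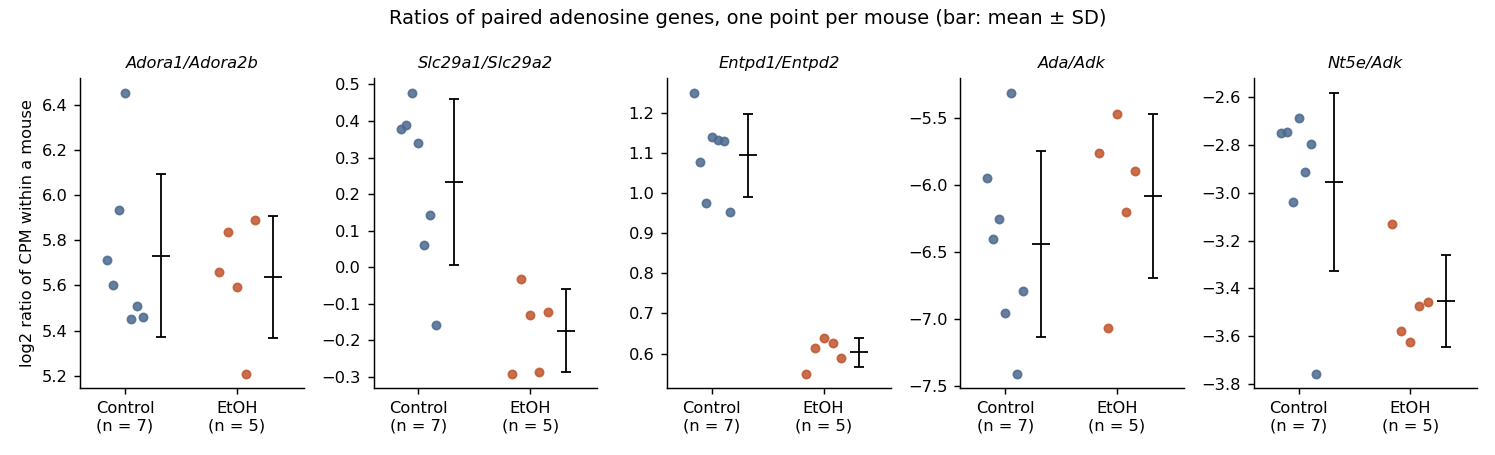
Log2 ratio of CPM of 5 pairs of adenosine genes within each mouse, controls (n = 7) and ethanol-drinking mice (n = 5), with the mean and SD beside the points. Each panel has its own vertical scale. The Entpd1 to Entpd2 ratio separates the groups completely, from 0.55 to 0.64 against 0.95 to 1.25, Control 7 lies among the ethanol-drinking mice in the Slc29a1 to Slc29a2 panel and below all of them in the Nt5e to Adk panel.

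Of the enzymes that remove adenosine, Adk was abundant and lower, and Ada was close to the limit of what the depth allows. Adk, on chromosome 14 from 21102618 to 21499916, encodes adenosine kinase, the main route of adenosine clearance in the adult brain and largely an astrocyte enzyme there. Its control levels were tight, with 42.6 at the lowest, 43.9 at the median and 46.2 CPM at the highest. EtOH 1 to EtOH 5 had 37.2, 41.2, 38.2, 35.7 and 36.0 CPM. All ethanol-drinking mice were below all controls, which with Entpd1 makes 2 of the 9 genes separated in this direction, against 4.96% of all genes tested. The mean fell from 44.0 ± 1.36 in the controls to 37.7 ± 2.21 CPM (mean ± SD, n = 7 and n = 5), a change of -14.5%. This corresponded in edgeR to a log2 fold change of -0.23 ± 0.05 (standard error) with a Benjamini-Hochberg adjusted p = 0.00436. Of 10 listed astrocyte markers 0 were lower and 4 were higher. Their summed level was 3784 to 4365 CPM in the controls and 4092 to 4646 CPM in the ethanol-drinking mice. The part of astrocytes in the fall of Adk was not tested.

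Ada, on chromosome 2 from 163565705 to 163592159, encodes adenosine deaminase. It had between 6 and 42 counts in a mouse, which is 0.191 to 1.03 CPM with a median of 0.460 CPM in the controls. EtOH 1 to EtOH 5 had 0.626, 0.249, 0.805, 0.425 and 0.547 CPM. The groups overlapped, and the 95% interval of the log2 fold change of 0.07 ran from -0.66 to 0.80 (edgeR adjusted p = 0.916 after Benjamini-Hochberg adjustment), so a change of the size seen for Slc29a1 or for Adk was not detectable at this depth. Ada also shares 20.2% of its exon length with Pkig on the other strand. Pkig had 70.9 ± 9.87 CPM (SD, n = 7) in the controls and 58.4 ± 2.98 CPM (SD, n = 5) in the ethanol-drinking mice (log2 fold change -0.28, edgeR adjusted p = 0.0246 after Benjamini-Hochberg adjustment), and the study does not describe whether counting used the strand.

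The log2 ratio of Ada to Adk was -6.44 ± 0.69 (SD, n = 7) in the controls and -6.08 ± 0.61 (SD, n = 5) in the ethanol-drinking mice, which did not pass (exact two-sided permutation test, p = 0.372, adjusted p = 0.466 over 5 ratios). The log2 ratio of Nt5e to Adk, which sets the surface enzyme that forms adenosine beside the kinase that removes it, was -2.95 ± 0.37 (SD, n = 7) and -3.45 ± 0.19 (SD, n = 5). This difference of -0.50 missed the threshold after adjustment (exact two-sided permutation test, p = 0.0303, adjusted p = 0.0505 over 5 ratios), and Control 7 had the lowest ratio of all 12 mice. With each mouse left out in turn the difference lay between -0.63 and -0.45. The unadjusted exact permutation p ran from 0.00216 without Control 7 to 0.0576 without EtOH 3.

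**Figure D4:**
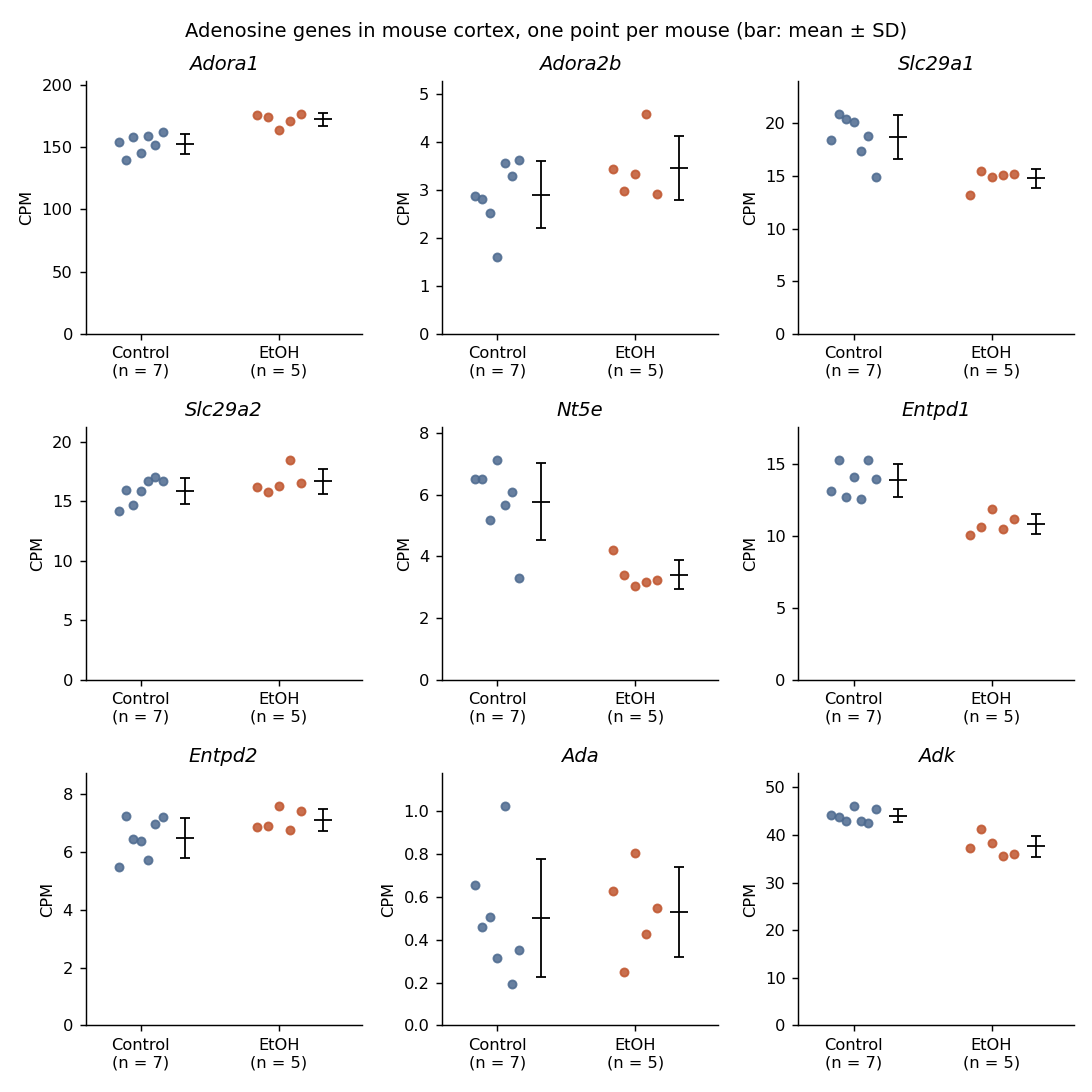
Level in CPM of each of the 9 adenosine genes in each control (n = 7) and each ethanol-drinking mouse (n = 5), with the mean and SD beside the points and vertical axes starting at 0. Adora1 is higher and Entpd1 and Adk are lower in each ethanol-drinking mouse than in any control, and Nt5e and Slc29a1 are lower apart from an overlap with Control 7.

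Levels were compared between genes after division by exon length, in CPM per kb of merged exons. In the controls Adora1 was first with 23.8 ± 1.24 CPM per kb (SD, n = 7), 6.17 times the level of Adk, at 3.86 ± 0.12 CPM per kb. Slc29a2 followed at 3.03 ± 0.21 CPM per kb, and these 3 genes did not overlap in range. Slc29a1, Entpd2, Entpd1 and Adora2b came next with 2.42, 2.29, 1.95 and 1.57 CPM per kb, and each of these overlapped its neighbour. Nt5e had 0.658 ± 0.143 CPM per kb and Ada 0.0945 ± 0.0520 CPM per kb (SD, n = 7). In the ethanol-drinking mice the gap between Adora1, at 26.9 ± 0.81 CPM per kb (SD, n = 5), and Adk widened to 8.14 times, and the ranges of Adk and Slc29a2 met. Entpd2 then stood above Slc29a1 without overlap, at 2.51 against 1.91 CPM per kb, with the same uncertainty from Npdc1. By this measure Adora1 was far above the transporters and enzymes in both groups, whereas the receptor gene Adora2b was not. Merged exons hold all annotated exons of a gene, so genes with many alternative exons come out lower. Adora1 also led before division, with a mean of 153 against 44.0 CPM for Adk in the controls.

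The wider pathway was described with 34 other genes of adenosine and purine handling, and 28 passed the filter, with 4 lower and 4 higher (edgeR adjusted p under 0.05) and a median log2 fold change of -0.03, near the 11.6% and 12.1% of all genes tested. Adora2a, a receptor gene that is abundant in striatal neurons, changed most. It had 28.7 to 86.4 CPM in the controls and 4.61, 1.71, 2.21, 1.58 and 1.40 CPM in EtOH 1 to EtOH 5, with Control 7 the lowest control. Its mean fell from 57.1 ± 18.9 in the controls to 2.30 ± 1.33 CPM (mean ± SD, n = 7 and n = 5). The log2 fold change in the edgeR fit was -4.58 ± 0.31 (standard error) with a Benjamini-Hochberg adjusted p = 1.92e-08. The fall of Adora2a was accompanied by that of all 15 striatal markers, whose summed level is given above, and the rise of Adora1 ran opposite to it.

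Slc29a4, which encodes a membrane transporter of monoamines that also carries adenosine, was the transporter that rose. It went from 9.85 ± 2.27 in the controls to 19.8 ± 5.95 CPM (mean ± SD, n = 7 and n = 5). By edgeR this was a log2 fold change of 1.01 ± 0.17 (standard error) with a Benjamini-Hochberg adjusted p = 0.000405. EtOH 1 to EtOH 5 had 19.9, 15.7, 29.9, 18.0 and 15.4 CPM, all above the highest control at 12.7 CPM. EtOH 3, the highest, was also the mouse with the highest choroid plexus and ependymal markers, and without it the log2 fold change was 0.81 (edgeR adjusted p = 0.00107). EtOH 2 and EtOH 5, whose sums of those markers were 27.6 and 16.1 CPM, had the lowest levels of the 5, and the part of choroid plexus tissue in the rise was not tested.

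The remaining genes past both thresholds were sparse. Slc28a1, a sodium-coupled nucleoside transporter, fell from 0.670 ± 0.241 in the controls to 0.161 ± 0.0690 CPM (mean ± SD, n = 7 and n = 5). In the edgeR fit the log2 fold change was -2.01 with a Benjamini-Hochberg adjusted p = 0.000672, on 2 to 10 counts in an ethanol-drinking mouse. Pnp2, a purine nucleoside phosphorylase that acts on inosine, fell from 0.647 ± 0.173 in the controls to 0.221 ± 0.0947 CPM (mean ± SD, n = 7 and n = 5). Its edgeR log2 fold change was -1.50 with a Benjamini-Hochberg adjusted p = 0.00269. The 4 other genes that passed the p threshold changed by less than 0.5 in size. They were the ectonucleotidase gene Entpd3, at -0.47, and Ahcyl2, Entpd6 and Entpd7, at 0.30, 0.23 and 0.32.

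A list of 15 P2rx and P2ry genes holds receptors for ATP and ADP, the precursors of extracellular adenosine. It also holds genes that are not receptors for ATP or ADP, among them P2ry6 and P2ry14. Of the 15 genes 12 passed the filter, and 2 were lower and 0 higher, with a median log2 fold change of -0.04. Of all genes tested 11.6% were lower and 12.1% were higher. P2ry1, an ADP receptor, fell from 2.59 ± 0.88 in the controls to 1.01 ± 0.16 CPM (mean ± SD, n = 7 and n = 5). This corresponded in edgeR to a log2 fold change of -1.36 ± 0.24 (standard error) with a Benjamini-Hochberg adjusted p = 0.000530. EtOH 1 to EtOH 5 had 1.07, 0.902, 0.805, 1.21 and 1.06 CPM, all below the lowest control at 1.55 CPM. P2ry13, another ADP receptor, changed by -0.35 (edgeR adjusted p = 0.0163 after Benjamini-Hochberg adjustment). P2ry12, which is also in the microglial list, had a log2 fold change of -0.07 that did not pass.

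**Figure D5:**
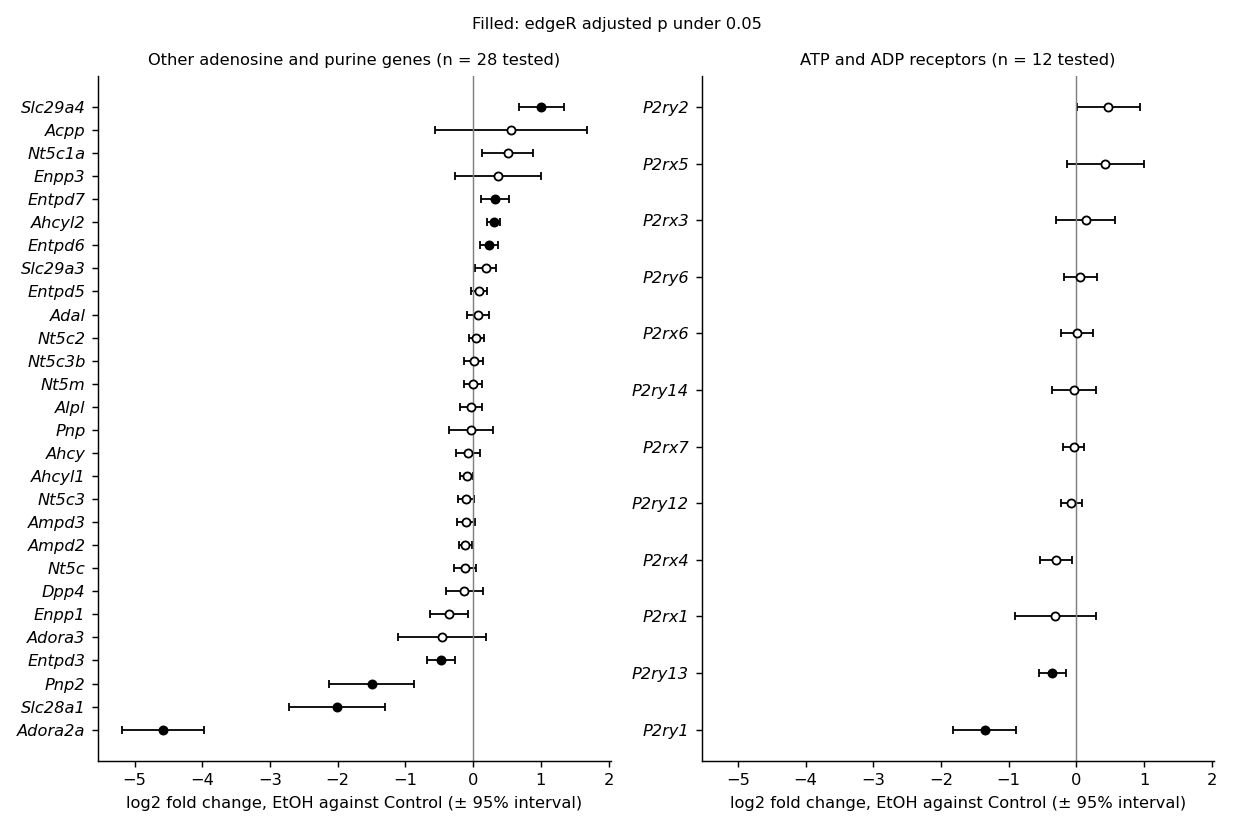
Log2 fold changes of 28 other adenosine and purine genes (left) and 12 P2rx and P2ry genes (right), ethanol-drinking (n = 5) against control mice (n = 7), in order of size. Not all genes on the right are receptors for ATP or ADP. Bars are 95% intervals by a normal approximation, and filled points have an edgeR adjusted p under 0.05. Adora2a stands apart at -4.58, and Slc29a4 at 1.01 is the filled point furthest above 0.

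The genes whose levels varied most like those of the changed adenosine genes were sought across the 12 mice after removal of the group means, among 11567 other genes of at least 5 CPM (11568 for Nt5e). These correlations are descriptions over 12 mice, of which EtOH 1 and Control 5 were sequenced more deeply than the others. Adora1 was closest to Hhipl1, Ankrd24 and Fhod3 (Pearson r = 0.94, 0.92 and 0.91), and Slc29a1 to Dolk, Nfatc2 and Oxa1l (r = 0.94, 0.92 and 0.91). Nt5e was closest to Prkg1, Tomm70a and Sf3b3 (r = 0.92, 0.89 and 0.88), Entpd1 to Btg1, 1110032A03Rik and Slc6a11 (r = 0.94, 0.88 and 0.87), and Adk to Gm5577, Zranb2 and Tpmt (r = 0.90, 0.89 and 0.89). The 5 lists of closest genes share no gene with each other.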

How the data were processed

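RNA of cortex from 12 mice was sequenced by BGI. The authors checked reads with FastQC (version 0.11.9 per the submitters' processing notes), aligned them to GRCm39 with STAR and Gencode Release 28, counted them with featureCounts, compared groups with DESeq2, and deposited expected counts per gene symbol, not normalized. In 61 symbols the values were not whole, and all were rounded. The handling of strand and of reads matching several genes is not given in the sources used here. Column names identified all 12 mice.

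Genes were filtered with filterByExpr, scaled by TMM and tested with edgeR's quasi-likelihood test over 16059 genes with Benjamini-Hochberg adjustment, at the study's thresholds (0.05 for the adjusted p, 0.5 for the size of the log2 fold change). Tools were R 4.3.3, edgeR 4.0.16, limma 3.58.1 and DESeq2 1.42.0. Standard errors are the log2 fold change divided by the square root of F. Ratios are differences of log2 CPM (prior count 2), tested over all 792 assignments of mice. Total counts ranged from 31768079 to 42183031 per mouse. P-values measure the spread between mice, and floors cover counting error only.

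Members and lists were chosen with earlier results of these data known. All 9 genes are named, with pathway genes past both thresholds and, for each changed member, the 3 genes of at least 5 CPM most alike; pathway genes past the p threshold alone, overlapping genes and the choroid marker Ttr were named after their values were seen. Exon lengths, positions and starts are from Gencode release M39 of GRCm39, and promoter windows are the 250 bases upstream.

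Alternatives were DESeq2, voom, upper quartile or relative log expression factors, other filters, fold minimums and prior counts, a replicate block, marker covariates, and leaving out mice. On simulated counts over 15905 genes, with 200 shifted by 1 on the log2 scale, edgeR recovered 178 with 7 false calls. Replicate libraries were not duplicates (lowest chi-square per degree of freedom within a group 7.88).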

Additional observations from a re-analysis of the deposited data

Results flagged for a closer look

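In 38 groups of log2 CPM values or ratios tested for a mouse far from the rest, 3 held one, where chance gives about 1.9. The log2 CPM of Slc29a1 in EtOH 1 was 3.73, the lowest of the 5 ethanol-drinking mice, and the nearest of the others was at 3.90. The log2 CPM of Nt5e in Control 7 was 1.75, and the nearest control was at 2.39. The log2 ratio of Nt5e to Adk in Control 7 was -3.76, and the nearest control was at -3.04. The last pair of values come from the same mouse and share Nt5e, and Control 7 also had the lowest summed striatal markers of the controls.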

How the results depend on the processing

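Adora1, Slc29a1, Nt5e, Entpd1 and Adk each kept their direction and an adjusted p under 0.05 in all 12 fits that left out a mouse and in the 8 other fits without marker covariates. The exception was the fit with the striatal and hippocampal scores as covariates, which called 0 of the 9 genes lower, 0 higher and 0 lower past 0.5, and 0 of the other adenosine genes lower or higher. There the log2 fold change turned to -0.27 for Adora1, 0.38 for Slc29a1, 0.79 for Nt5e, 1.30 for P2ry1 and -1.09 for Ada. It was -0.02 for Entpd1, -0.62 for Adk, -1.33 for Adora2a, -1.04 for Slc28a1, -0.27 for Pnp2 and 2.74 for Slc29a4, in the direction of the fit without covariates and past the threshold for 0 of these genes. Those scores hold 97.7% of the group variance, and this fit called 0 genes lower and 6 higher over all 16059 tested. A minimum log2 fold change of 1 left 0 members lower and 0 higher. With at least 10 counts in every mouse, 2 other adenosine genes were lower among 24 tested, and Ada had no value. Leaving out a mouse gave 2 to 5 other adenosine genes higher, the lowest without EtOH 3 or EtOH 4. It gave 4 to 6 of them lower, with 5 without EtOH 2 and 6 without EtOH 3. Log2 fold changes of Ada then ran from -0.12 to 0.36, differences in the Adora1 to Adora2b ratio from -0.16 to 0.025, and differences in the Nt5e to Adk ratio from -0.63 to -0.45. The unadjusted exact permutation p of the Nt5e to Adk ratio ran from 0.00216 without Control 7 to 0.0576 without EtOH 3. Replicate numbers did not pair the mice (correlations of same-numbered mice -0.11 to 0.02, and 0 of 5 ethanol-drinking mice correlating best with their own number). With the replicate block 4 members were lower and 1 higher, as without it, and the log2 fold change of Ada was -0.15. The cause of these changes was not tested. Genes near 1 CPM or below, such as Ada, Slc28a1 and Pnp2, rest on few counts.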
